A study of Mus musculus with 8 samples.

Results

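Eph receptors and their membrane-bound ligands, the ephrins, were measured by RNA sequencing in small intestinal adenomas and in small intestine of mice. The 10 genes described here were chosen by name, with earlier results of these data known. They comprised 6 receptors (Ephb2, Ephb3, Ephb4, Ephb6, Epha1 and Epha2) and 4 ligands (Efnb1, Efnb2, Efna1 and Efna5). All 10 were found, each on 1 row, among the 39179 genes of the count table, which held 22 Eph receptor and ephrin genes in all. There were 5 adenoma libraries, from VilCreER+ APCfl/+ mice, and 3 wild-type libraries, whole small intestine of VilCreER+ mice whose labelled genotype lists no Apc allele. Mice of both groups carried VilCreER, a tamoxifen-activated Cre recombinase under the villin promoter, which acts in intestinal epithelium, and the tissue of both had been exposed to tamoxifen-induced recombination. Adenoma mice had 1 floxed and 1 normal allele of Apc, whose product restrains Wnt signalling, and the series' design text calls them aged without giving an age. The strain was inbred C57BL6/J. Whole tissue was sequenced, so fewer cells of a type and less RNA per cell cannot be told apart in any value given here. Separate mice are not stated in the labels, and the p-values therefore cover the spread between libraries, which may be technical.

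Eph receptors are receptor tyrosine kinases that are switched on by ephrins on the surface of a neighbouring cell, and the ligand-bearing cell is signalled to in return. A-class ephrins are held in the membrane by a GPI anchor and mostly bind EphA receptors, while B-class ephrins span the membrane and mostly bind EphB receptors. In the intestine, EphB2 and EphB3 are made by cells at the base of the crypt under Wnt signalling and B-class ephrins by cells nearer the villus, and repulsion between them keeps the cell types in their places. In blood vessels, ephrin-B2 marks arteries and EphB4 marks veins.

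The libraries held 18040301 to 28343915 counts. Adenoma 2 stood apart from the other adenomas. It had 245.5 CPM of Hoxb13, a hindgut homeobox gene, where no other library passed 0.894 CPM, and 0.470 CPM of the small intestinal factor Gata4, against 68.4 to 84.4 CPM in the other adenomas. For these 2 genes adenoma 2 went against its label, and results are also given without it. CPM are counts scaled by library size after TMM, which sets libraries to a common level by the bulk of their genes. Summed over 6 acinar genes, pancreatic RNA reached 544 CPM in adenoma 5 and 753 CPM in wild type 1, and at most 4.04 CPM in any other library. Xist, transcribed from the inactive X chromosome, was at 432 to 761 CPM in adenomas 2 to 5 and close to absent from adenoma 1 (1.17 CPM) and wild type (1.56 to 1.75 CPM). Ddx3y, a Y-linked gene, was the reverse, at most 0.0939 CPM in adenomas 2 to 5, 75.6 CPM in adenoma 1 and 70.6 to 77.5 CPM in wild type. The part of this sex pattern in the results was not tested. Apc itself was at 132 to 159 CPM in adenoma and 191 to 211 CPM in wild type. The labels leave the floxed exons unnamed, so a count over all exons does not check their loss.

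The 4 receptors of the B class described here were higher in adenoma, the receptor Epha1 was lower, and the B-class ligands Efnb1 and Efnb2 were not called. Of the 10 genes, 5 were called higher (Ephb2, Ephb3, Ephb4, Ephb6 and Efna1, the last of which turned to -0.11 under pan-epithelial scaling) and 1 lower (Epha1). Calls are from edgeR's quasi-likelihood test at a Benjamini-Hochberg adjusted p under 0.05, by which 30.3% of the 18345 genes tested were higher and 27.8% were lower. Both shares are the background for every count of called genes given below. In either direction, 6 of 10 were called beside 58.1% of all genes, so the share of calls was near the background. The median log2 fold change, adenoma over wild type, was 0.42 over the 10 genes and 0.04 over all genes tested. Past a factor of 2, tested with glmTreat, Ephb3 was called higher and Epha1 lower, 2 of 10 beside 13.2% of all genes. The groups did not overlap for 6 of the 10 (Ephb2, Ephb3, Ephb4, Ephb6, Epha1 and Efna5), beside 56.9% of all genes. Without adenoma 2 the same 6 were called, at log2 fold changes of 0.95 for Ephb2, 2.97 for Ephb3, 0.92 for Ephb4, 2.87 for Ephb6, -1.59 for Epha1 and 0.88 for Efna1. Leaving out wild type 1 and adenoma 5, the libraries with pancreatic RNA, ended the calls of Ephb6 and Efna1, at log2 fold changes of 4.26 and 0.78. Of all genes 7944 were then called, against 10657 with every library, and of the 10 genes 3 were higher and 1 lower. These directions rest on scaling by the bulk of genes. Pan-epithelial scaling, which gives every library the same total over 8 epithelial genes, moved the median of all genes by -0.79 on the log2 scale, with 1070 genes called higher and 9987 lower against 5558 higher and 5099 lower under TMM. Under that scaling 2 of the 10 were called higher (Ephb3 and Ephb6) and 5 lower (Epha1, Epha2, Efnb1, Efnb2 and Efna5). Relative to the shifted median, Ephb2 stood at 0.78, Ephb3 at 2.78, Ephb4 at 0.99, Efna1 at 0.63 and Epha1 at -1.83. The 8 epithelial genes did not move alike under TMM. Their log2 fold changes ran from -0.20 for Cldn7 and 0.11 for Cdh1, neither called, to 1.16 for Krt19 and 2.54 for Krt18. Whether their total follows epithelial content or the level of such single genes was not tested.

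**Figure D1:**
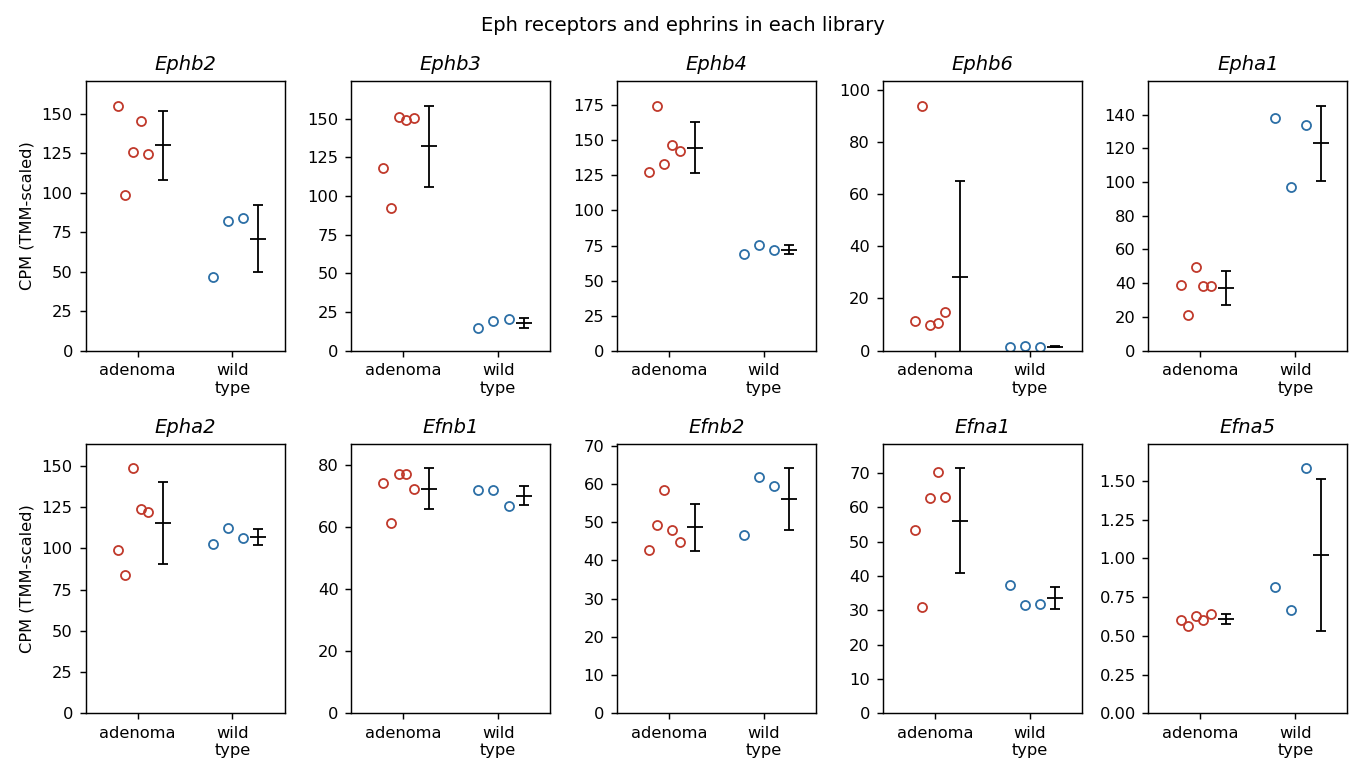
Expression of the 10 genes in CPM (linear axes from 0, 1 panel a gene), with a circle for each library and the mean ± SD as a bar beside the circles; the SD bar of Ephb6 in adenoma is cut at 0. Ephb3 and Ephb4 lie apart in the groups, Ephb6 has 1 adenoma at 93.9 CPM, and Efnb1 and Efnb2 overlap.

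Ephb3 was higher in every adenoma. This receptor of B-class ephrins (GRCm38, chr16:21204755-21223305, plus strand, ENSMUSG00000005958) had 118, 92.2, 151, 149 and 151 CPM in adenomas 1 to 5, against 14.5, 19.3 and 20.6 CPM in wild types 1 to 3. Every adenoma stood far above every wild-type library, with adenoma 2 the lowest of its group. Its log2 fold change was 2.87 ± 0.21 (SE), a factor of 7.30 (edgeR, adjusted p = 2.75e-05), and 2.95% of all genes tested had a higher one. It was called under each alternative tried, at log2 fold changes from 2.03 under pan-epithelial scaling to 2.97.

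Ephb2, its partner receptor at the crypt base (chr4:136647539-136835988, minus strand, ENSMUSG00000028664), rose by less. It had 155, 98.8, 126, 145 and 125 CPM in adenomas 1 to 5, and 46.6, 82.2 and 84.1 CPM in wild types 1 to 3. The groups did not overlap, but adenoma 2 lay close to wild types 2 and 3. A log2 fold change of 0.87 ± 0.22 was fitted (edgeR, adjusted p = 0.00862), or a factor of 1.83. It was 0.04 under pan-epithelial scaling, where the median of all genes was -0.74, and adjusted p ran from 0.000861 to 0.879 over the alternatives. Wild type 1, the library with pancreatic RNA, was the lowest, and without it the log2 fold change was 0.65 (edgeR, adjusted p = 0.0186).

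The stretches before the RefSeq transcription starts of Ephb2 and Ephb3 are printed because both genes are textbook targets of beta-catenin and TCF factors and both were higher, and that of Epha2 because it held the one match to a TCF core among the 11 promoters of the 10 genes. They are 5′ to 3′ on the strand of the gene, from RefSeq on GRCm38.p6, up to 250 bases before the start and outside the GENCODE gene bounds. Capitals mark CTTTGA, the core bound by TCF factors, and GGGCGG, the GC box bound by Sp1, on either strand. The positions are chr4:136836013-136836262 (minus strand) for Ephb2, chr16:21204545-21204754 (plus strand) for Ephb3 and chr4:141300971-141301220 (plus strand) for Epha2.
Ephb2: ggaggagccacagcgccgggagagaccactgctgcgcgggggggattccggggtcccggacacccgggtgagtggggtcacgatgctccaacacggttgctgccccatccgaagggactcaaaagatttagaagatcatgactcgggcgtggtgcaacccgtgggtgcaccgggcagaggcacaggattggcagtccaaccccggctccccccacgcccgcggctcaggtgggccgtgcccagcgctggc
Ephb3: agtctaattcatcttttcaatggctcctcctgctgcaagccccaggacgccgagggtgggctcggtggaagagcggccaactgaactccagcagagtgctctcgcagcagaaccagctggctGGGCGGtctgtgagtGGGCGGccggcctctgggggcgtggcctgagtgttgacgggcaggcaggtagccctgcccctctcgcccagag
Epha2: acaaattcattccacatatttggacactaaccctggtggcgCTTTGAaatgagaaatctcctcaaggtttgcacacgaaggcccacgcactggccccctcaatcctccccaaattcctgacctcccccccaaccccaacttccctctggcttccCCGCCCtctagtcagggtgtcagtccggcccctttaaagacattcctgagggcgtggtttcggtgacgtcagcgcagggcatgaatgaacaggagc
CTTTGA lay in 1 of the 11 promoters, and in 13.8% of 32851 RefSeq mouse promoters cut to the same 250 bases. Its match in Epha2 begins 209 bases before the start. GGGCGG lay in 9 of 11, and in 32.7% of all, with 2 matches in Ephb3 and none in Ephb2. Member promoters had a median GC content of 64.8%, against 52.4% over all. A Notch-effector core, TGGGAA, lay in 1 of the 11, that of Efnb1, and in 21.6% of all promoters, and TGANTCA, bound by AP-1, lay in none of the 11 and in 6.75% of all. The longer TCF core CTTTGAT, which contains CTTTGA, lay in none of the 11 and in 3.21% of all. Each motif was searched on both strands, and a match is a description of these letters in this window.

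Ephb4, the receptor that marks veins and binds ephrin-B2 (chr5:137350109-137378669, plus strand, ENSMUSG00000029710), was higher in all 5 adenomas. It had 127, 175, 133, 147 and 142 CPM in adenomas 1 to 5, against 69.0, 75.5 and 71.8 CPM in wild types 1 to 3. The wild-type libraries lay close together, and adenoma 2 was the highest of all. This was a log2 fold change of 1.01 ± 0.12 (edgeR, adjusted p = 0.000191), or a factor of 2.01. It was 0.25 under pan-epithelial scaling (adjusted p = 0.423), the one alternative that ended the call. Of 12 endothelial markers, 6 were called higher and 0 lower, their median log2 fold change was 0.35, and their summed level ran from 296 to 428 CPM in adenoma and from 265 to 328 CPM in wild type. Adenoma 2, which had the most Ephb4, had the lowest summed endothelial level of the adenomas. Fibroblast markers were also higher, 7 of 8, at a summed 2767 to 3480 CPM in adenoma and 1135 to 1499 CPM in wild type. The part of either cell type in the Ephb4 difference was not tested. Exons of Ephb4 overlap those of Zan on the other strand, whose level was 4.85 to 18.5 CPM in adenoma and 9.60 to 10.2 CPM in wild type. The library kit does not keep strand, so reads in the shared stretch cannot be assigned.

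Ephb6, a receptor that lacks kinase activity (chr6:41605482-41620509, plus strand, ENSMUSG00000029869), was low in wild type and uneven in adenoma. It had 11.3, 93.9, 9.78, 10.51 and 14.9 CPM in adenomas 1 to 5, against 1.48, 1.84 and 1.42 CPM in wild types 1 to 3, where 88 counts were found in all. Each adenoma was above each wild-type library, and adenoma 2 was far above the other adenomas. A log2 fold change of 4.15 ± 1.06 was fitted (edgeR, adjusted p = 0.0116), and one of 2.87 without adenoma 2 (adjusted p = 5.31e-06). Without wild type 1 and adenoma 5 the log2 fold change was 4.26 and the call was lost (edgeR, adjusted p = 0.0553). DESeq2 gave no adjusted p for this gene. EphB6 is also known from T cells. Of 8 T cell markers, 0 were called higher and 6 lower, at a summed 15.5 to 23.8 CPM in adenoma and 51.1 to 66.3 CPM in wild type, and their part in the Ephb6 values was not tested.

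Per exon length, the make-up of B receptor RNA differed between the groups. Ephb4 took 45.3% ± 0.641 (SD, n = 5) of the summed CPM per kilobase of the 4 B receptors in adenoma and 64.3% ± 5.29 (n = 3) in wild type. Its share in the single adenomas ran only from 44.7% to 46.2%, adenoma 2 included. Ephb3 took 16.5% in adenoma 2, 29.4% to 35.5% in the other adenomas and 10.3% to 12.1% in wild type. The share of Ephb2 overlapped, at 9.30% in adenoma 2, 14.7% to 20.3% in the other adenomas and 17.5% to 26.0% in wild type. Ephb6 held 29.5% in adenoma 2, 4.06% to 5.88% in the other adenomas and 1.47% to 1.86% in wild type. These shares do not depend on library scaling but do depend on the length used, that of all annotated exons of a gene, and were not tested.

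**Figure D2:**
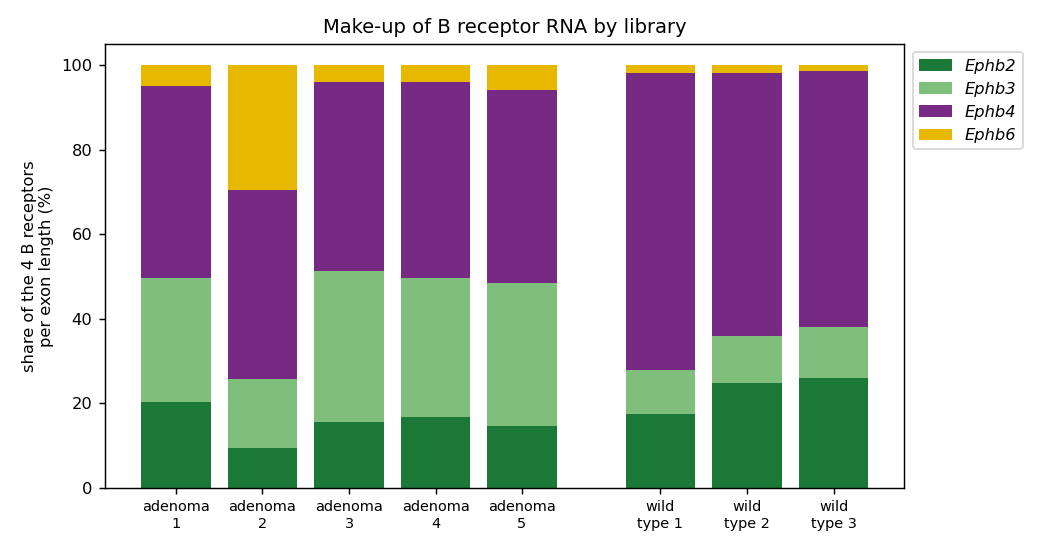
Share of each of the 4 B receptors in their summed CPM per kilobase of exon (y axis, %), 1 stacked bar for each library. Ephb4 holds 44.7% to 46.2% in the adenomas and 60.4% to 70.3% in wild type. Adenoma 2 differs from the other adenomas by its high Ephb6 share of 29.5% and its low shares of Ephb3 (16.5%) and Ephb2 (9.30%).

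Among the A-class receptors, Epha1 fell and Epha2 was not called. Epha1, a receptor found mainly in epithelia (chr6:42358487-42373268, minus strand, ENSMUSG00000029859), had 38.9, 21.1, 49.5, 38.1 and 38.3 CPM in adenomas 1 to 5, against 138, 97.3 and 134 CPM in wild types 1 to 3. Every adenoma stood below every wild-type library, and adenoma 2 was the lowest of all. Its log2 fold change was -1.73 ± 0.24 (edgeR, adjusted p = 0.000468), and it was called under each alternative tried, between -2.58 and -1.59. Exons of Epha1 overlap those of Zyx on the other strand, which stood at 41.8 to 47.0 CPM in adenoma and 61.7 to 75.7 CPM in wild type, and reads in the shared stretch cannot be assigned. Of 10 villus enterocyte markers, 2 were called lower and 1 higher, and their median log2 fold change was -1.09. The lower ones were the disaccharidases Sis and Lct and the higher one was Nt5e, a nucleotidase that other cell types also make. Sis and Lct passed in 9 and 11 of the 19 alternatives. The other 7 were not called. Among them Alpi went up, at a log2 fold change of 1.19 (edgeR, adjusted p = 0.422). It had 1024, 7.84, 1058, 1997 and 2377 CPM in adenomas 1 to 5, and 751, 355 and 595 CPM in wild types 1 to 3. The summed level of the 10 was 353 CPM in adenoma 2, 7129 to 13639 CPM in the other adenomas and 17000.3 to 29839 CPM in wild type. Their part in the Epha1 difference was not tested. In exon-length terms, Epha1 took 27.5% ± 3.13 of the RNA of the pair Epha1 and Epha2 in adenoma and 57.4% ± 5.82 in wild type (SD, n = 5 and n = 3).

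Epha2 (chr4:141301240-141329384, plus strand, ENSMUSG00000006445), an epithelial receptor of ephrin-A1, had 99.2, 83.7, 149, 124 and 122 CPM in adenomas 1 to 5, and 102, 112 and 107 CPM in wild types 1 to 3. Of the adenomas, 3 lay above and 2 below all wild-type libraries, so the groups overlapped. Its log2 fold change was 0.11, with a 95% interval of -0.28 to 0.50 (edgeR, adjusted p = 0.604).

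Of the B-class ligands, neither Efnb1 nor Efnb2 was called under TMM scaling. Efnb1, an X-linked gene (chrX:99136130-99148991, plus strand, ENSMUSG00000031217), had 74.0, 61.2, 77.0, 77.0 and 72.2 CPM in adenomas 1 to 5, and 71.7, 71.7 and 66.6 CPM in wild types 1 to 3. Adenoma 1, the only adenoma with the Xist level of wild type, lay within the range of the other adenomas, and the part of the sex pattern in Efnb1 was not tested. A log2 fold change of 0.05 was fitted, with a 95% interval of -0.17 to 0.26 (edgeR, adjusted p = 0.689), the narrowest interval of the 10 genes. Efnb2, the ligand of EphB4 on arteries (chr8:8617434-8661242, minus strand, ENSMUSG00000001300), had 42.6, 49.2, 58.5, 47.9 and 44.9 CPM in adenomas 1 to 5, and 46.7, 61.8 and 59.5 CPM in wild types 1 to 3. The groups overlapped, and the log2 fold change was -0.20, with a 95% interval of -0.50 to 0.09 (adjusted p = 0.204). Under pan-epithelial scaling both were called lower, at -0.76 for Efnb1 and -0.9998 for Efnb2, beside a median of -0.74 over all genes.

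Among the A-class ligands, Efna1 stood above wild type in 4 of 5 adenomas and Efna5 was low in every library. Efna1, the main ligand of EphA2 (chr3:89271733-89281142, minus strand, ENSMUSG00000027954), had 53.3, 30.8, 62.8, 70.2 and 63.0 CPM in adenomas 1 to 5, against 37.2, 31.7 and 31.97 CPM in wild types 1 to 3. Adenoma 2 lay below every wild-type library and the other adenomas above. The log2 fold change of 0.74 ± 0.24 (edgeR, adjusted p = 0.0275), which turned to -0.11 under pan-epithelial scaling, was 0.88 without adenoma 2 (adjusted p = 0.000111). The call was lost when any 1 of wild types 1, 2 and 3 and adenomas 3, 4 and 5 was left out, at adjusted p from 0.0533 to 0.0866. Efna5 (chr17:62604184-62881317, minus strand, ENSMUSG00000048915), a ligand that also binds EphB2, had 0.563 to 0.643 CPM in adenoma and 0.815, 0.669 and 1.58 CPM in wild types 1 to 3, from 72 counts in adenoma and 57 in wild type. The log2 fold change was -0.74 ± 0.31 (adjusted p = 0.0672). It was called without wild type 2 (-0.96, adjusted p = 0.0381), under pan-epithelial scaling (-1.54, adjusted p = 0.00579) and with upper-quartile scaling (adjusted p = 0.0479), while it was -0.28 without wild type 3, the library with the highest level (adjusted p = 0.473).

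CPM per kilobase of exon divides by the length of all annotated exons of a gene together, 12608 bases for Ephb2 and 6641 for Ephb3. The transcripts present may be shorter, so levels of different genes can be compared only roughly. On this scale the order of the 10 genes differed between the groups. In adenoma the highest were Ephb4 at 31.2, Efna1 at 30.6, Epha2 at 24.7, Efnb1 at 20.9 and Ephb3 at 19.9, and each neighbouring pair overlapped between libraries. Ephb3 stood clear of the next, Ephb2 at 10.3, but before division by length they averaged 132 and 130 CPM in adenoma. Then came Epha1 at 9.46, Ephb6 at 7.44, Efnb2 at 7.09 and, apart from all, Efna5 at 0.151. In wild type the order began with Epha1 at 31.3, Epha2 at 22.9, Efnb1 at 20.3, Efna1 at 18.4 and Ephb4 at 15.5. It went on with Efnb2 at 8.17, Ephb2 at 5.63, Ephb3 at 2.73, Ephb6 at 0.418 and Efna5 at 0.253. Of the neighbours in wild type, only Efnb1 and Efna1, and Ephb6 and Efna5, overlapped between libraries.

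Whether pairs of members changed by the same factor was asked within each library, from the log2 ratio of their counts, which library scaling does not affect. Over 6 pairs, 5 differed between the groups (exact permutation test, two-sided, p = 0.0357 for each, the smallest that 3 against 5 libraries allow, and 0.0429 adjusted over the 6 pairs). At this p the test says only that the groups did not overlap, which also held for the CPM of 56.9% of single genes. Other gene pairs were not examined, so no background share stands beside these 6. The ratio of Ephb3 to Ephb2 averaged 0.01 ± 0.28 in adenoma and -1.93 ± 0.22 in wild type (SD, n = 5 and n = 3), a 3.86-fold difference in the ratio. Without any 1 library the test could not pass after adjustment, and the differences stayed on the same side of 0. The ratio of Epha2 to Epha1 averaged 1.66 ± 0.23 in adenoma and -0.18 ± 0.34 in wild type. That of Ephb4 to Efnb2, the receptor and ligand of vein and artery, averaged 1.57 ± 0.24 in adenoma and 0.37 ± 0.16 in wild type, and that of Ephb2 to Efnb1, the receptor of the crypt and its ligand, 0.84 ± 0.16 in adenoma and -0.03 ± 0.52 in wild type. The last difference, 0.86, was 0.57 without wild type 1. The ratio of Efna5 to Efna1 averaged -6.42 ± 0.42 in adenoma and -5.10 ± 0.68 in wild type, and rests on the low counts of Efna5. Efnb2 against Efnb1 overlapped, at -0.58 ± 0.21 in adenoma and -0.33 ± 0.25 in wild type (exact permutation test, p = 0.179, also after adjustment).

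**Figure D3:**
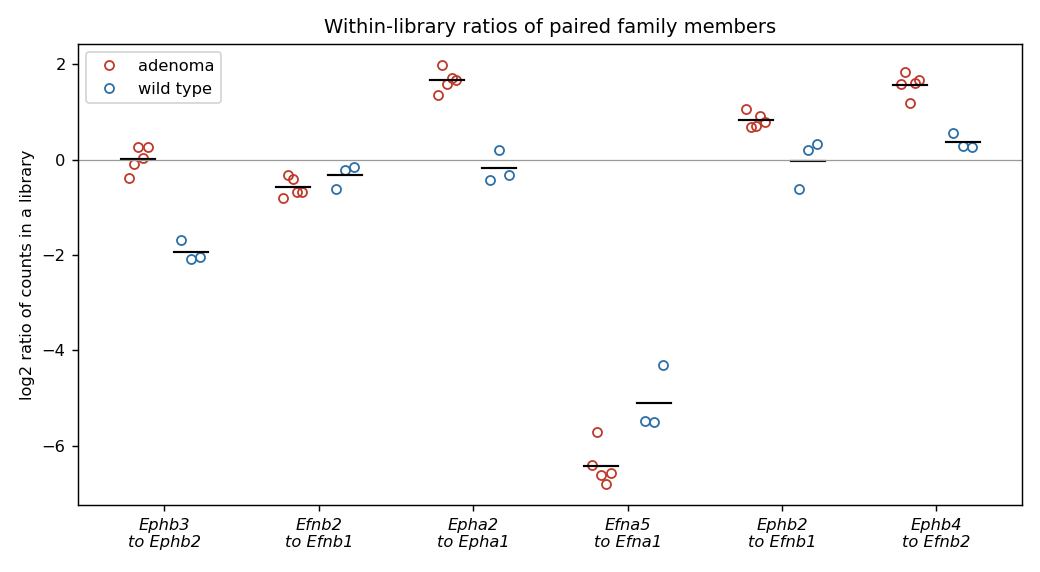
Log2 ratio of the counts of 2 members within a library (y axis), with a circle for each library, red for adenoma and blue for wild type, and a line at each group's mean. The groups do not overlap for 5 of the 6 pairs; the ratio of Efnb2 to Efnb1 overlaps.

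The other 12 genes of the family averaged at most 3.17 CPM per kilobase in adenoma, apart from Efna4 at 13.3. The filter on low counts left out Epha6, Epha8 and Epha10, with at most 0.655 CPM in any library. Of the 9 tested, 6 were called higher and 2 lower, beside 30.3% and 27.8% of all genes, and the median of their log2 fold changes was 1.42. Efna2 and Epha5 had at most 8 and 11 counts in a wild-type library, and Ephb1 at most 7 in an adenoma library. The filter can admit such genes through their higher group alone, so these calls and this median may be set in part by the filter. Efna4, an A-class ligand, had 17.8 to 24.3 CPM in adenoma and 4.84 to 6.24 CPM in wild type, a log2 fold change of 1.91 ± 0.14 (edgeR, adjusted p = 2.57e-05), and kept its call under each alternative. It lies on chromosome 3 beside Efna3 and Efna1, with 10424 bases between Efna3 and Efna4 and 32756 between Efna1 and Efna3. Efna3, the middle one, had 1.91 ± 0.415 CPM in adenoma and 2.15 ± 0.609 CPM in wild type (SD, n = 5 and n = 3; adjusted p = 0.586). Efna2 was called higher at low level, 0.432 to 1.13 CPM in adenoma and 0.204 to 0.436 CPM in wild type (adjusted p = 0.0322), and was called in 12 of 18 alternatives. Among the 6 that ended it were leaving out wild type 1, wild type 2 or adenoma 3, leaving out wild type 1 and adenoma 5, and pan-epithelial scaling (log2 fold change 0.56, adjusted p = 0.419).

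Receptors outside the 10 were called on both sides. Epha4, which binds ephrins of both classes, had 21.4, 41.8, 19.0, 17.9 and 27.4 CPM in adenomas 1 to 5, against 6.98, 9.53 and 9.22 CPM in wild types 1 to 3. The groups lay apart, with adenoma 2 the highest, and the log2 fold change was 1.57 ± 0.30 (edgeR, adjusted p = 0.00243), or 0.88 under pan-epithelial scaling (adjusted p = 0.119). Epha7, another EphA receptor, averaged 9.23 ± 1.29 CPM in adenoma and 3.46 ± 0.157 CPM in wild type, a log2 fold change of 1.42 ± 0.16 (adjusted p = 0.000146), or 0.62 under pan-epithelial scaling (adjusted p = 0.0578). The A-class receptors Epha3 and Epha5 were low in level. Epha3 stood at 1.31 to 6.601 CPM in adenoma and 0.713 to 0.873 CPM in wild type (adjusted p = 0.00603). Epha5 was at 0.517 to 1.88 CPM in adenoma and 0.204 to 0.600 CPM in wild type (adjusted p = 0.0244), and it was called in 13 of 18 alternatives. Among the 5 that ended the call were leaving out wild type 1 or 2, leaving out wild type 1 and adenoma 5, and pan-epithelial scaling (log2 fold change 0.71, adjusted p = 0.218). Ephb1, a B-class receptor, was lower, at 0.0470 to 0.303 CPM in adenoma and 0.600 to 0.725 CPM in wild type (edgeR, adjusted p = 0.00572). So was the B-class ligand Efnb3, at 0.513 to 0.849 CPM in adenoma and 1.07 to 1.75 CPM in wild type (adjusted p = 0.00835). Both had fewer than 100 counts in each group.

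**Figure D4:**
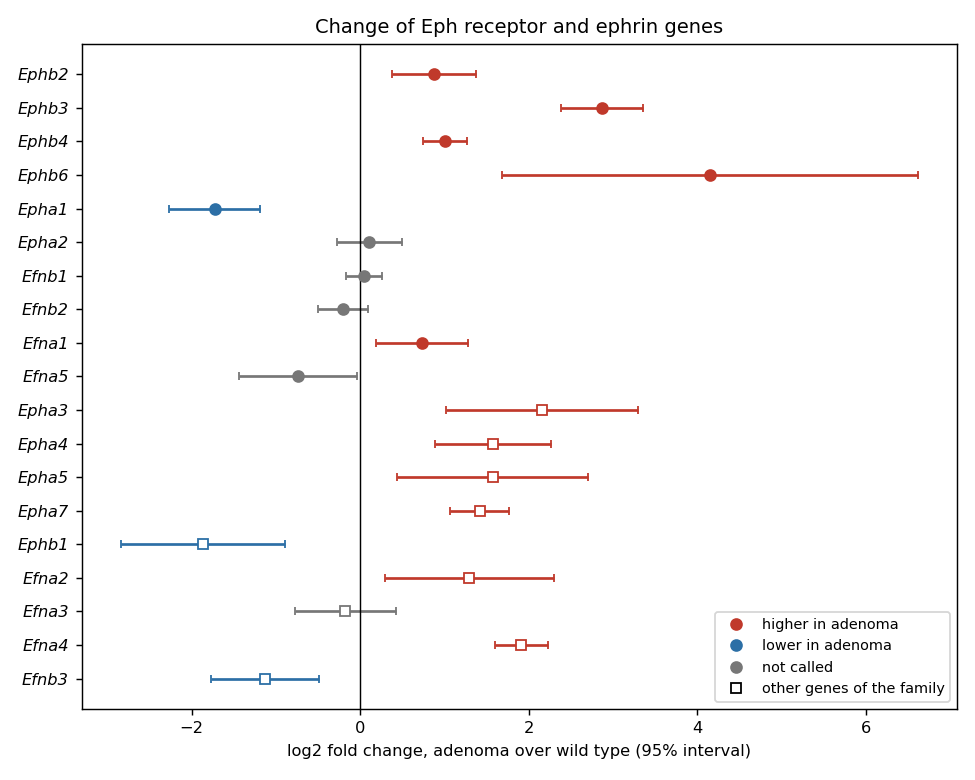
Log2 fold change, adenoma over wild type, with its 95% interval (x axis) for the 19 family genes tested, filled circles for the 10 genes described and open squares for the other 9; red is called higher, blue called lower and grey not called. The widest interval, 1.68 to 6.61, is that of Ephb6, and those of Epha2, Efnb1, Efnb2 and Efna3 span 0.

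Genes that carry the signal inside cells went both ways. Of 22 genes of forward signalling, downstream of the receptor, 6 were called higher and 5 lower, beside 30.3% and 27.8% of all genes. Their median log2 fold change was 0.03. Cbl, a ubiquitin ligase that sends activated receptor kinases to degradation, was at 23.5 ± 5.85 CPM in adenoma and 65.8 ± 3.29 CPM in wild type (log2 fold change -1.48 ± 0.18; edgeR, adjusted p = 0.000239). The exchange factors Vav2 and Kalrn were lower too, at log2 fold changes of -1.14 ± 0.17 and -1.15 ± 0.15. Tiam1, an activator of Rac, was higher, at 40.3 ± 2.58 CPM in adenoma and 22.7 ± 3.14 CPM in wild type (adjusted p = 0.000381), but 0.04 on the log2 scale under pan-epithelial scaling. Of 6 genes of reverse signalling, in the ligand-bearing cell, 2 were called higher and 1 lower. Ptpn13, a phosphatase of B-class ephrins, was at 29.1 ± 9.32 CPM in adenoma and 14.0 ± 0.963 CPM in wild type (adjusted p = 0.00794), and was not called under pan-epithelial scaling (log2 fold change 0.34, adjusted p = 0.461). Rgs3, which binds their cytoplasmic tail, was at 23.3 ± 2.02 CPM in adenoma and 31.7 ± 2.71 CPM in wild type (adjusted p = 0.00625). Pick1, a PDZ protein, was the other one higher (adjusted p = 0.0280), but it was called in only 8 of the 19 alternatives, at adjusted p from 0.0176 to 0.163, and turned to -0.50 under pan-epithelial scaling.

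Of 10 genes of shedding and dephosphorylation, 4 were called higher, beside 30.3% of all genes, and the median of the log2 fold changes was 0.21. Adam10, the protease that cuts ephrins from the cell surface, was at 161 ± 10.4 CPM in adenoma and 104 ± 11.7 CPM in wild type (log2 fold change 0.64 ± 0.10; edgeR, adjusted p = 0.00102). Psen2, a subunit of gamma-secretase, averaged 19.0 ± 0.844 CPM in adenoma and 12.8 ± 1.90 CPM in wild type (log2 fold change 0.57 ± 0.11; adjusted p = 0.00261). Acp1, a phosphatase of Eph receptors, was at 42.8 ± 5.07 CPM in adenoma and 29.0 ± 3.24 CPM in wild type (adjusted p = 0.00480). Adam10, Psen2 and Acp1 turned to -0.16, -0.22 and -0.26 under pan-epithelial scaling.

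Wnt targets and crypt-base markers were read beside the crypt receptors. The 15 Wnt targets all passed as higher (median log2 fold change 1.97), and so did 6 of 8 crypt-base markers (median 1.49), of which 5 stand on both lists. Under pan-epithelial scaling Ascl2, on both lists, was not called (log2 fold change 0.71; edgeR, adjusted p = 0.109). Lgr5, Sox9, Cd44, Nkd1, Notum, Znrf3 and Sp5 kept their calls under each of the 19 alternatives. The Wnt target Apcdd1 was at 141 CPM in adenoma 2 and 12.8 to 20.4 CPM in the other adenomas. The crypt-base marker Olfm4, named after its values were seen, was not called (log2 fold change -1.80 ± 1.07; edgeR, adjusted p = 0.182). It had 85.3, 0.376, 139, 70.6 and 151 CPM in adenomas 1 to 5, all below the 347, 301 and 285 CPM in wild types 1 to 3. Ephb3, at 2.87, lay above both medians and Ephb2, at 0.87, below both. Lgr5, the receptor of crypt-base stem cells, averaged 55.2 ± 17.8 CPM in adenoma against 11.4 ± 1.06 CPM in wild type. Cd44, an adhesion receptor, averaged 184 ± 23.5 CPM in adenoma against 61.6 ± 13.9 CPM in wild type. Pan-epithelial markers were higher in 6 of 8, at a summed 5247 to 8909 CPM in adenoma and 4129 to 4427 CPM in wild type, and the part of epithelial content in the receptor differences was not tested. Among other cell types, 3 of 8 smooth muscle markers were called lower and 0 higher, 2 of 6 myeloid ones lower and 0 higher, 4 of 8 of enteric neurons and glia lower and 1 higher, and 1 of 6 of B and plasma cells each way.

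The genes most like each member were found by the root mean square difference of log2 CPM, centred on each gene's mean over the 8 libraries, among 11658 genes of at least 5 CPM. Nearest to Ephb3 were Dusp4, a phosphatase of MAP kinases, at 0.16, Plxnb1, a semaphorin receptor, at 0.16, and Plaur, the urokinase receptor, at 0.22. Nearest to Ephb2 were Nhp2, Sgo2a and Erh, at 0.07 to 0.10, and no other member was close, since 2034 genes were nearer to Ephb2 than Ephb4 was. For Epha1 the nearest were Sord, Clrn3 and Btnl5-ps, at 0.10 to 0.15. Ephb6 had none close, with Tnip3 the nearest at 0.45. Efnb1 was matched most closely, by Setd3 at 0.03.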

How the data were processed

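RNA was sequenced from 5 adenoma and 3 wild-type libraries. The authors deposited raw counts per Ensembl gene, and the submitters' processing notes name HTSeq, TopHat2, FastQC and GRCm38. Versions, annotation, strand setting and filters were not given in the sources used here. All 8 columns were assigned by name. Symbols, positions and exon lengths came from GENCODE M21 (GRCm38), promoters from RefSeq (GRCm38.p6).

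Genes were filtered with filterByExpr, scaled by TMM and tested with robust quasi-likelihood fits of edgeR 4.0.16 in R 4.3.3, with Benjamini-Hochberg adjustment over 18345 genes. The SE is the log2 fold change divided by the square root of F. Ratios of members used counts plus 0.5. Libraries of a group differed by more than sampling noise in each pair (chi-square per degree of freedom at least 20.1).

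Alternatives were other scalings, filters, a replicate block, left-out libraries, DESeq2 1.42.0 and limma-voom 3.58.1. Members and lists were chosen with earlier results of these data known. Named genes were the family, up to 4 genes of each pathway list by adjusted p with the leading one of the other direction, and the 3 nearest in pattern to each member, of which part are given. A gene of the shedding and dephosphorylation list is not reported here. Counts limit precision for genes under 100 counts in a group.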

Additional observations from a re-analysis of the deposited data

Results flagged for a closer look

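Among 19 family genes and 6 ratios, each checked for 1 adenoma standing apart from the other 4, Ephb6 was the one result found. It was at 93.9 CPM in adenoma 2, with the nearest other adenoma at 14.9 CPM, a gap of 0.939 of the group's range. The limit used is Dixon's 95% critical value, which by its definition is passed in about 1 of 20 groups by chance. Adenoma 2 also had 245.5 CPM of Hoxb13 and 0.470 CPM of Gata4. Whether Ephb6 and these genes are linked was not tested.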

How the results depend on the processing

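Ephb3, Epha1 and Efna4 kept direction and call under each of the 19 alternatives. Across them 4 to 7 of the 10 members were called, and 7584 to 12276 genes in all, apart from the replicate block, which called 6549. Same-numbered libraries share only a number: their deviations from the group means correlated at -0.0182, 0.0513 and 0.0612 across genes, and 1 of the 3 wild-type libraries correlated best with its own number. The block left 3 members higher and 1 lower, without Ephb2 (adjusted p = 0.0872) and Efna1 (0.132), and also ended the calls of Epha5 (0.0977), Efna2 (0.0537), Efnb3 (0.0562), Rgs3, Pick1 and Acp1, and its mean within-pair ratios moved no pair by more than the spread. Pan-epithelial scaling turned Epha2 to -0.72, Efnb1 to -0.76, Efna1 to -0.11, Pick1 to -0.50, Adam10 to -0.16, Psen2 to -0.22 and Acp1 to -0.26. Uncalled genes near 0 also turned: Efnb1 was -0.0371 with upper-quartile scaling and -0.0620 with the filter of 5 CPM, and with a library left out Epha2 ran from -0.0016 to 0.198 and Efna3 from -0.383 to 0.0075, or 0.0205 without wild type 1 and adenoma 5. With a library left out the exact test cannot pass 0.05 after adjustment, so its p says nothing there. The differences in log2 ratio then ran from 1.87 to 2.07 for Ephb3 to Ephb2, 1.72 to 2.04 for Epha2 to Epha1, -1.53 to -0.93 for Efna5 to Efna1, 0.57 to 1.048 for Ephb2 to Efnb1 and 1.14 to 1.30 for Ephb4 to Efnb2. Causes were not tested. Low counts limit Efna5, Ephb1, Efna2 and Efnb3.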
